A study of Mus musculus with 4 samples.

Results

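Complex I of the mitochondrial respiratory chain was described from 49 genes whose symbols start with Nduf, of 54021 gene symbols counted in reconstituted ovaries (rOvaries). Every Nduf symbol was taken, except names ending in -ps or containing os. By known role they were 7 core subunits, 29 accessory subunits, 8 assembly factors (Ndufaf1 to Ndufaf8) and 5 other symbols (Ndufa4, Ndufa4l2, Ndufs6b, Ndufb4c and Ndufa11b). The rOvaries were aggregates of primordial germ cells and somatic cells from fetal gonads of C57BL/6 mice carrying actin-GFP, grown under the kidney capsule of bilaterally ovariectomized females. All recipients, controls included, were second-generation telomerase-deficient (G2 Terc-/-) mice on a C57BL/6 background, a model of premature reproductive aging. The methods give the recipients' age as 2 to 3 months (10 weeks on average) for the transplantation, but list such mice at 3 to 5 months elsewhere. INK128, an inhibitor of the mTOR kinase in both of its complexes, was given in the drinking water at 0.75 uM/g of body weight by the labels and at 30 uM by the methods, and control recipients received none. RNA of rOvaries taken 1 month after transplantation was sequenced in 2 INK128-treated libraries (replicates 1 and 2) and 2 control libraries (replicates 1 and 3). No source said whether the libraries of a group came from separate animals, so p-values measure the spread between these libraries, which may be technical.

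Complex I, the NADH:ubiquinone oxidoreductase, takes electrons from NADH, passes them along a chain of iron-sulfur clusters in its matrix arm to ubiquinone, and uses the energy to pump protons through its membrane arm. Its core subunits do this chemistry and are encoded partly in the nucleus and partly in the mitochondrial genome, whereas the accessory subunits surround and stabilise them. Assembly factors act while the complex is built and are not part of the finished enzyme. The mitochondria of the egg are passed to the offspring.

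The 4 libraries held between 19130209 and 23029089 counts, and a floor of 3 counts corresponded to 0.127 to 0.161 CPM (counts scaled to library size with TMM factors), which covers counting error only. The INK128-treated libraries were more alike (Pearson r of log2 CPM 0.98 across the genes tested, 1.0% of genes over 2-fold apart) than the controls (0.806 and 13.8%). Control replicate 1 held 1021 counts of Y-linked genes against 0 to 2 in the other libraries, although the methods name female gonads as the donor tissue, and its 8 Sertoli cell markers summed to 1489 CPM against 226 to 283. Oocyte markers (13 genes) summed to 1274 and 937 CPM with INK128 but 882 and 30.7 CPM in control replicates 1 and 3, and granulosa cell markers (9 genes) to 6275 and 8131 CPM against 3243 and 6290 CPM. Steroidogenic markers (6 genes) summed to 3780 and 4989 CPM against 774 and 10595 CPM, and erythroid markers (6 genes) to 97.5 and 91.4 CPM against 22.3 and 56.8 CPM. Kidney markers summed to 131 and 233 CPM against 860 and 1895 CPM, with 17 of 20 genes lower in both INK128-treated libraries and 1 higher. Immune cell markers summed to 627 and 561 CPM against 1182 and 1904 CPM, with 12 of 17 lower. No marker on these lists was at 0 in all libraries. These markers moved with the groups or within them, and their part in the results below was not tested. In whole tissue, a change in the number of cells of a type cannot be told apart from a change in the RNA of each cell.

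Nduf transcripts made up a larger share of the RNA in the INK128-treated rOvaries. The 49 genes took 0.443% and 0.434% of all counts with INK128 and 0.237% and 0.266% in controls, so both treated libraries lay above both controls. Of the 44 Nduf genes with a mean CPM above 10, 43 had a positive log2 fold change (INK128 against control), with a median of 1.02 beside −0.03 over all 11758 genes tested. By edgeR's quasi-likelihood test, 11 Nduf genes rose and 0 fell at the thresholds of the study, which ask for more than a 1.5-fold change together with an adjusted p under 0.05. Over all genes, 3.18% were called higher and 3.19% lower. Without adjustment (p under 0.05), edgeR gave 34 Nduf genes higher and 0 lower, beside 17.7% of all genes higher and 18.7% lower. Both INK128-treated libraries exceeded both controls in 42 of the 44, against 34.5% of all genes tested.

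The adjusted p-values of the 11 genes that rose lay close to the threshold. Over all genes called they ran from 0.0464 to 0.0499 (edgeR). A further 8 Nduf genes exceeded 1.5-fold with an adjusted p between 0.05 and 0.06 (edgeR), as did 873 genes of the whole table, and 8 more Nduf genes lay between 0.06 and 0.1. DESeq2, the tool of the study, called 28 Nduf genes higher and 0 lower at the same thresholds, where it called 13.6% of all genes higher and 15.1% lower, and the 28 included all 11. The limma voom test called 0, with 35 Nduf genes and 18.3% of all genes higher at an unadjusted p below 0.05. The edgeR count also rested on single libraries. It was 0 without INK128 replicate 1, with 17 Nduf genes and 6.39% of all genes higher at an unadjusted p below 0.05. It was also 0 without INK128 replicate 2, with 19 Nduf genes and 5.43% of all genes higher at that limit. It was 34 without control replicate 1 and 38 without control replicate 3, and the calls over all genes grew with it, to 22.7% and 21.2% higher. An exact permutation test of 2 against 2 libraries cannot go below p = 0.333 (two-sided).

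**Figure D1:**
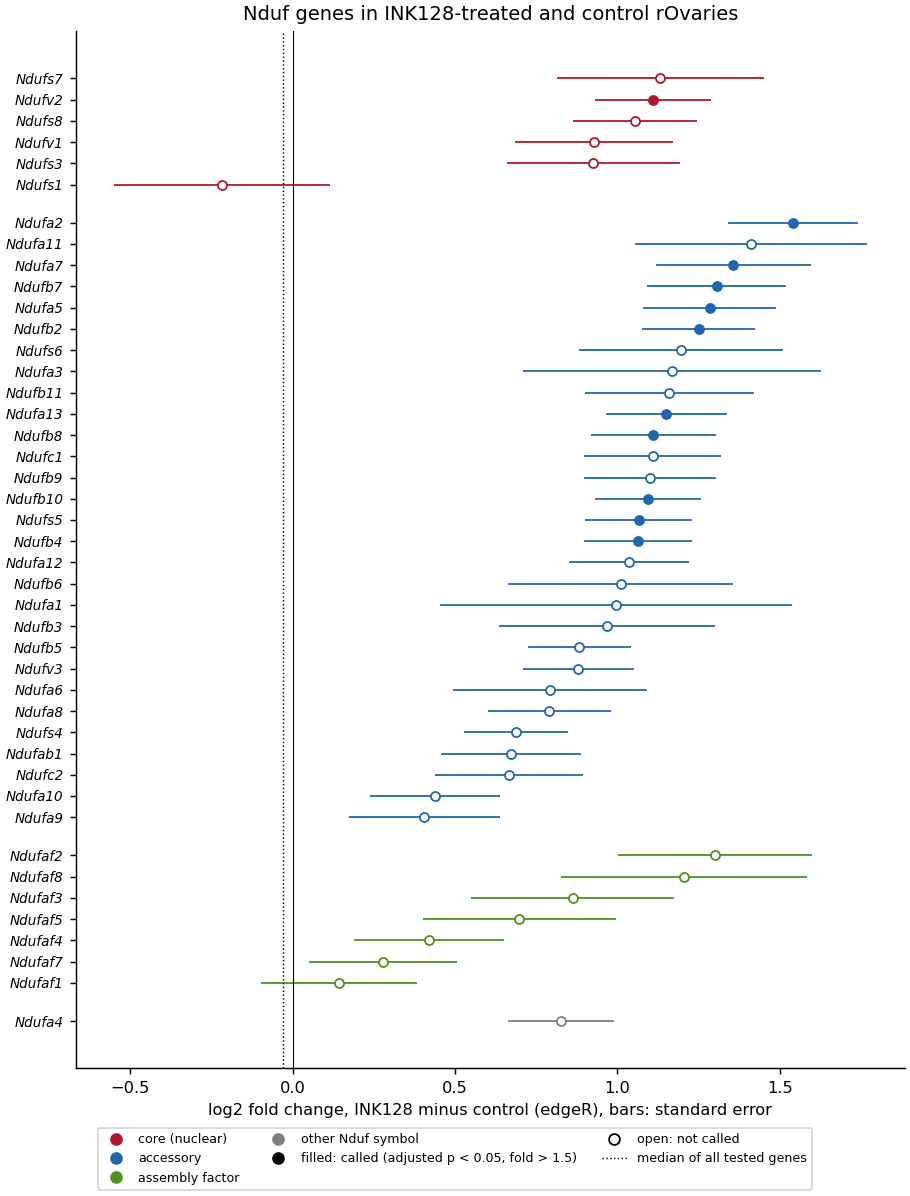
Log2 fold change (INK128 minus control, edgeR) of 43 of the 44 Nduf genes with a mean CPM above 10, by class, with standard errors as bars. Filled points are the 11 genes called higher, and the dotted line marks the median of all tested genes (−0.03). Ndufs1 is the only point below 0.

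The promoters of Nduf genes are shown because nuclear respiratory genes are known to share binding sequences for a few transcription factors, among them NRF1 and YY1. Of the 49 genes, 40 had a promoter in the RefSeq table (GRCm38.p6, 250 bases before to 50 after the start). Among those with no entry were Ndufs1, Ndufa2, Ndufb9, Ndufaf6, Ndufs6b, Ndufa4l2, Ndufb4c and Ndufa11b. The promoter of Ndufb4, an accessory subunit whose transcript rose, lies at chr16:37654319-37654618 on the minus strand. That of Ndufs6, a zinc-binding accessory subunit, lies at chr13:73328433-73328732 on the minus strand, and that of the core subunit Ndufs7 at chr10:80249199-80249498 on the plus strand. The sequences run 5′ to 3′ on the strand of the gene, with matches to the NRF1 motif (GCGCANGCG) or the YY1 motif (AAGATGGCG), on either strand, in capitals.
Ndufb4: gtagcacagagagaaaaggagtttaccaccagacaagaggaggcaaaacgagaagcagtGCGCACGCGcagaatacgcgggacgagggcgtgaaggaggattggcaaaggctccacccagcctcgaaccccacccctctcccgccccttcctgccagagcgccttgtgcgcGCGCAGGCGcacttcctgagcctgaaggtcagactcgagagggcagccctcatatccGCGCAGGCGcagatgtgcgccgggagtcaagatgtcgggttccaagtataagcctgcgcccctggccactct
Ndufs6: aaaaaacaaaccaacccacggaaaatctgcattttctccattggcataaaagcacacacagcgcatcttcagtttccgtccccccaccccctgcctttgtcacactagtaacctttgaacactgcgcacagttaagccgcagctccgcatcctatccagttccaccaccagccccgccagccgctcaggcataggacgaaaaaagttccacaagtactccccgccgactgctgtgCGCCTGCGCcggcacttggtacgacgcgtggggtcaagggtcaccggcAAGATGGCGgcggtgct
Ndufs7: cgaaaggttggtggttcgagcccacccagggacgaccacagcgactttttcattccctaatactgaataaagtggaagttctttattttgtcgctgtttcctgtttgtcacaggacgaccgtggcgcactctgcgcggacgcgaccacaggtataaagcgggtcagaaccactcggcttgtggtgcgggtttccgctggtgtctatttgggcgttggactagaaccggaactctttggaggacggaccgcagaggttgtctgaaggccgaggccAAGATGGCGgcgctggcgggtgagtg

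Ndufb4 held 3 NRF1 matches, starting 191, 79 and 22 bases before the transcription start. Ndufs6 held 1 NRF1 match 15 bases before the start and 1 YY1 match 34 bases downstream in the transcript, and Ndufs7 held a YY1 match at base 25. The NRF1 motif was present in 10 of the 40 Nduf genes (25.0%), beside 15.8% of the tested genes and 7.03% of all genes in the table. Those 10 were Ndufa5, Ndufa6, Ndufa8, Ndufa11, Ndufb4, Ndufb10, Ndufs5, Ndufs6, Ndufaf4 and Ndufaf5. The YY1 motif was present in 6 (15.0%), beside 3.8% and 1.64%: Ndufs7, Ndufs4, Ndufs6, Ndufa9, Ndufc1 and Ndufaf8. Each of the 6 matches lay downstream of the start, between bases 11 and 36, while 60.1% of the matches in tested genes did. The ETS motif (CCGGAAGT) was found in 1 Nduf gene, Ndufs3 (2.5% against 9.48% of tested genes), and the motif of the estrogen-related receptors (TCAAGGTCA) in 0 (0.295% of tested genes). Of the 10 genes that rose and had a promoter, 4 held the NRF1 motif and 0 the YY1 motif, and of the 30 others 6 held each. The NRF1 letters read almost the same on both strands, so adjacent matches can be 1 sequence read from both sides. A match describes letters and does not show binding.

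The nuclear core subunits carry the flavin and the iron-sulfur clusters of the matrix arm. In 6 of the 7, both treated libraries exceeded both controls, beside 34.5% of all genes tested. The median log2 fold change of the 7 was 0.93. Ndufv2, an iron-sulfur subunit near the flavin (chromosome 17, 66078638 to 66101559 of mm10), was the only core gene called by edgeR. DESeq2 called 5, Ndufv2, Ndufs7, Ndufs8, Ndufv1 and Ndufs3. Over all genes, edgeR called 3.18% higher and DESeq2 13.6%. Ndufv2 measured 176 and 207 CPM in the INK128-treated libraries and 88.6 and 88.8 CPM in the controls. The groups were well apart and the controls nearly equal, and the log2 fold change was 1.11 (standard error 0.18, edgeR adjusted p = 0.0468). Ndufs8, which carries iron-sulfur clusters toward the quinone site, measured 107 and 134 CPM against 58.0 and 58.2 CPM (log2 fold change 1.05, edgeR adjusted p = 0.0504), just outside the threshold.

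Ndufs7, whose terminal cluster reduces ubiquinone, had the highest fold change of the core but unlike replicates. It measured 97.5 and 126 CPM against 64.0 and 37.9 CPM (log2 fold change 1.13, standard error 0.32, edgeR adjusted p = 0.0832). Its fold change ranged from 0.80 to 1.56 on the log2 scale when single libraries were left out. Ndufv1, the NADH-binding subunit, measured 167 and 145 CPM against 67.5 and 96.8 CPM, with a log2 fold change of 0.93. Ndufs3, an early building block of the matrix arm, measured 127.6 and 110.9 CPM against 49.4 and 76.1 CPM, also with 0.93. Neither passed in edgeR (adjusted p = 0.0744 and 0.0858), although the groups did not overlap in either.

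Ndufs1, the largest core subunit of the matrix arm (chromosome 1, 63143596 to 63176833), measured 82.9 and 87.8 CPM against 69.4 and 129 CPM. Both treated values fell between the controls (log2 fold change −0.22, standard error 0.33, edgeR adjusted p = 0.652). Its estimate was −0.60 without control replicate 1, where edgeR called it lower, and 0.30 without control replicate 3. With 8086 exon bases, Ndufs1 was the longest of the 44 genes.

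The core subunits of the membrane arm are encoded by the mitochondrial genome, and their estimates went in both directions. Of 7 mt-Nd genes, 5 had a mean CPM above 10, and their median log2 fold change was 0.02, with 0 called by edgeR, DESeq2 or voom and 0 at an unadjusted edgeR p below 0.05 in either direction. With exon length offsets the median was −0.71, 0 of the 5 were positive, and 2 were lower at an unadjusted edgeR p below 0.05. The difference between the nuclear and mitochondrial core was not tested. mt-Nd1 measured 2159 and 4304 CPM with INK128 and 4101 and 2202 CPM in controls, so the libraries of each group differed by more than the groups (log2 fold change 0.04). mt-Nd4, with 1290 and 3275 CPM against 2995 and 1494 CPM, had the same layout (0.02). mt-Nd6, which is encoded on the other strand of the mitochondrial DNA, measured 1102 and 1653 CPM against 1335 and 1019 CPM (0.23). Its span (13552 to 14070) overlaps that of mt-Nd5 (11742 to 13565). Strand settings are not given, so reads from the opposite strand may be among its counts.

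In this set mt-Nd2 and mt-Nd5 had negative estimates. mt-Nd2 measured 1123 and 2282 CPM against 3899 and 1739 CPM (log2 fold change −0.73, edgeR adjusted p = 0.366), with overlapping groups. mt-Nd5 measured 843 and 2061 CPM against 3402 and 2734 CPM, and here both treated libraries were below both controls (−1.08, edgeR adjusted p = 0.172). The 2 low genes entered a wider fit of 17631 genes (mean CPM over 1). mt-Nd4l measured 1.02 and 2.76 CPM against 21.2 and 9.61 CPM (−2.96, edgeR adjusted p = 0.0715), and mt-Nd3 measured 5.10 and 6.44 CPM against 4.21 and 3.42 CPM (0.65, edgeR adjusted p = 0.304). mt-Nd4l and mt-Nd4 overlap on the mitochondrial DNA, and the libraries were made from polyadenylated RNA. All mitochondrially encoded genes together took 1.56% and 3.38% of counts with INK128 and 4.06% and 2.32% in controls.

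**Figure D2:**
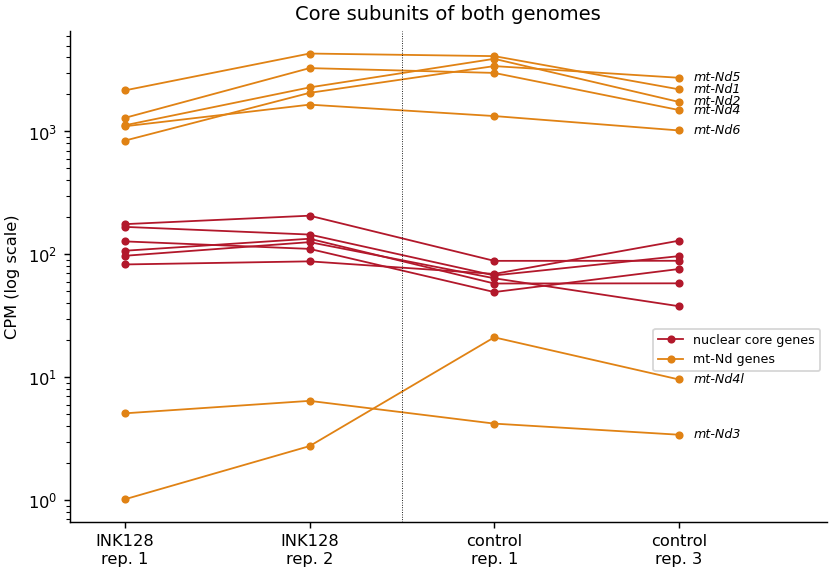
CPM on a log scale of 6 of the 7 nuclear core genes and the 7 mt-Nd genes in each of the 4 libraries. A line joins the values of 1 gene and does not stand for an order of libraries. The nuclear genes step down from the INK128-treated libraries to the controls, except Ndufs1, while the 5 abundant mt-Nd genes are higher in INK128 replicate 2 than in replicate 1 and higher in control replicate 1 than in replicate 3.

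The accessory median was 1.07 on the log2 scale, and this class gave 10 of the 11 genes that rose. With exon length offsets their median was 0.40, below the 0.44 of the core. Without offsets, all 29 had positive fold changes, from 0.41 to 1.54, and 28 were higher in both treated libraries than in both controls. DESeq2 called 20 of them. Among all genes tested, edgeR called 3.18% higher and DESeq2 13.6%, and 34.5% were higher in both treated libraries. By position in the complex, 3 of 9 matrix arm genes rose (median 1.04) and 7 of 19 membrane arm genes rose (median 1.09). The 1 accessory gene outside these groups, Ndufab1, is the mitochondrial acyl carrier protein, which sits in both arms.

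In the matrix arm, Ndufa2, a small subunit with a thioredoxin-like fold, had the largest fold change of all Nduf genes. It measured 139 and 117 CPM with INK128 and 40.0 and 47.9 CPM in controls (log2 fold change 1.54, standard error 0.20, edgeR adjusted p = 0.0464). Its lowest treated value was more than double its highest control value. Ndufa7 (chromosome 17, 33824572 to 33838317) measured 157 and 202 CPM against 79.4 and 60.7 CPM (1.36, edgeR adjusted p = 0.0487). Ndufa5 (chromosome 6, 24518666 to 24528013) measured 102 and 87.7 CPM against 34.8 and 43.1 CPM (1.28, edgeR adjusted p = 0.0464). These 3 genes were separated between the groups by more than either pair of replicates differed.

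The lower end of the matrix arm was Ndufs4 and Ndufa9. Ndufs4, loss of which causes a Leigh-like disease in mice, measured 109 and 112 CPM against 66.0 and 70.9 CPM (log2 fold change 0.69, edgeR adjusted p = 0.0618). Its replicates were close, and the groups did not overlap. Ndufa9, which binds NADPH near the quinone site, measured 102 and 78.0 CPM against 59.9 and 76.2 CPM (0.41, edgeR adjusted p = 0.266), so INK128 replicate 2 was barely above control replicate 3. Ndufab1 measured 79.8 and 106 CPM against 61.7 and 55.2 CPM (0.67, edgeR adjusted p = 0.103).

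In the membrane arm, the genes that rose included several that face the intermembrane space. Ndufb7, a twin-cysteine-motif protein of that face (chromosome 8, 83566671 to 83571626), measured 105 and 136 CPM against 52.5 and 44.8 CPM (log2 fold change 1.31, edgeR adjusted p = 0.0476). Ndufb10, of the same kind (chromosome 17, 24722060 to 24724478), measured 104 and 106 CPM against 47.0 and 51.6 CPM (1.09, edgeR adjusted p = 0.0464). Ndufs5, also of this kind (chromosome 4, 123712710 to 123718202), measured 109 and 113 CPM against 50.6 and 55.7 CPM (1.07, edgeR adjusted p = 0.0464). In Ndufb10 and Ndufs5 the replicates differed little and the groups stood about 2-fold apart. Ndufa8, the remaining protein of this kind, measured 120 and 97.0 CPM against 65.3 and 60.4 CPM and did not pass (0.79, edgeR adjusted p = 0.0651).

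Ndufb2 (chromosome 6, 39592574 to 39603382) measured 78.0 and 70.5 CPM against 30.3 and 32.1 CPM (log2 fold change 1.25, edgeR adjusted p = 0.0464). Ndufa13, known also as the cell death regulator GRIM-19 (chromosome 8, 69894180 to 69902558), measured 117 and 136 CPM against 61.3 and 52.7 CPM (1.15, edgeR adjusted p = 0.0475). Ndufb8 (chromosome 19, 44548572 to 44555440), often used as a protein marker of assembled complex I, measured 156 and 195 CPM against 82.8 and 80.1 CPM (1.11, edgeR adjusted p = 0.0487). Ndufb4 (chromosome 16, 37647170 to 37654453), with the 3 NRF1 matches printed above, had the smallest fold change of the genes that rose. It measured 89.2 and 89.7 CPM against 40.8 and 44.8 CPM (1.06, standard error 0.17, edgeR adjusted p = 0.0464). Where these exons overlap another counted gene, reads could be split between both: Ndufa13 shared 30% of its exon bases with Tssk6, which was at 0.590 to 1.27 CPM, and Ndufb2 and Ndufb8 shared 2.58% and 4.26% with same-strand genes.

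Large fold changes were also seen in membrane arm genes that did not pass. Ndufa11, a subunit at the contact with complex III in supercomplexes, measured 99.5 and 143 CPM against 58.1 and 33.2 CPM (log2 fold change 1.41, standard error 0.36, edgeR adjusted p = 0.0706). It was the second highest of the Nduf genes, with unlike replicates in both groups. Ndufa1, an X-linked subunit, was the only accessory gene with overlapping groups. It measured 59.2 and 31.9 CPM against 13.3 and 32.3 CPM (log2 fold change 0.995, standard error 0.54, edgeR adjusted p = 0.248). Ndufa1 was named after its values were seen. At the lower end, Ndufc2 measured 126 and 95.8 CPM against 62.2 and 77.5 CPM (0.67), and Ndufa10, which resembles a nucleoside kinase, measured 125 and 142 CPM against 110 and 87.0 CPM (0.44). Their edgeR adjusted p-values were 0.115 and 0.188.

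The Ndufaf assembly factors had a lower median, 0.70, and edgeR called none. Ndufaf2 passed the limit on mean CPM through the treated group, with a control mean of 9.68 CPM, and Ndufaf8 and Ndufaf5 had a control library below it (7.61 and 9.39 CPM). Requiring CPM above 10 in all 4 libraries left a class median of 0.33. Without adjustment, edgeR gave 3 of the 7 a p under 0.05, beside 17.7% of all genes higher at that limit. DESeq2 called 2, Ndufaf2 and Ndufaf8, beside 13.6% of all genes called higher. Their levels were also low, at 7.61 to 32.6 CPM in single libraries. Whether the class differed from the subunits was not tested.

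Ndufaf2, a relative of the subunit Ndufa12 that stands in for it during assembly, measured 23.5 and 24.2 CPM against 7.92 and 11.4 CPM (log2 fold change 1.30, standard error 0.30, edgeR adjusted p = 0.0611). It shared 65.6% of its exon bases with B230220B15Rik on the opposite strand, which had 0 counts in every library. Ndufaf8, which stabilises Ndufaf5, measured 24.3 and 26.0 CPM against 7.61 and 14.2 CPM (1.21, edgeR adjusted p = 0.1002). Both were near 24 CPM in the treated rOvaries, and their controls were apart from each other.

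Ndufaf3 and Ndufaf4 bind each other and act on the quinone-binding part of the matrix arm. Ndufaf3 measured 28.4 and 22.0 CPM against 11.2 and 16.4 CPM (log2 fold change 0.86), and Ndufaf4 measured 32.6 and 28.5 CPM against 25.4 and 20.3 CPM (0.42). Their edgeR adjusted p-values were 0.126 and 0.251. Ndufaf5, which hydroxylates an arginine of Ndufs7, measured 15.1 and 19.2 CPM against 9.39 and 11.8 CPM (0.70, edgeR adjusted p = 0.167). Ndufaf7, a mitochondrial methyltransferase, measured 25.3 and 22.4 CPM against 18.4 and 20.96 CPM (0.28, edgeR adjusted p = 0.412). The groups of Ndufaf7 nearly touched, and those of Ndufaf5 were farther apart.

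Ndufaf1, a member of the assembly complex that builds the membrane arm, had the smallest fold change of the class. It measured 17.3 and 19.6 CPM against 17.1 and 16.4 CPM (log2 fold change 0.14, edgeR adjusted p = 0.685). Ndufaf6 lay below a mean CPM of 10, at 6.49 and 7.08 CPM against 4.83 and 4.26 CPM, and was read from the wider fit of 17631 genes (0.63, edgeR adjusted p = 0.269). Of the assembly factors without an Nduf name, 12 had a mean CPM above 10, and their median was 0.25. edgeR called 0 of them, with 3 higher at an unadjusted p under 0.05, a share near the 17.7% of all genes, and their difference from the Ndufaf genes was not tested. DESeq2 called 2, a share near its 13.6% of all genes, namely Tmem126a (27.4 and 32.0 CPM against 14.3 and 16.9 CPM, log2 fold change 0.93) and Dmac1 (53.1 and 61.0 CPM against 32.0 and 29.3 CPM, 0.90). Aifm1, which acts in protein import and assembly, was lowest at −0.27, with 62.7 and 51.1 CPM against 52.2 and 85.1 CPM.

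The other Nduf symbols were mixed. Ndufa4, named as a complex I subunit but now placed in complex IV, measured 198 and 208 CPM against 117 and 113 CPM (log2 fold change 0.83, edgeR adjusted p = 0.0524). Its groups were far apart relative to the replicates. Ndufa4l2, a hypoxia-induced relative of Ndufa4, measured 13.5 and 12.7 CPM against 2.08 and 11.3 CPM (1.02, edgeR adjusted p = 0.410), so 1 control was close to the treated libraries and the other was not. The annotated pseudogenes Ndufs6b (2.09 and 4.97 CPM against 1.99 and 1.22 CPM) and Ndufb4c (2.20 and 1.06 CPM against 0.797 and 1.22 CPM) may share reads with their parent genes. Ndufa11b had 0 counts in every library. Of the symbols left out by the rule, Ndufb1-ps measured 63.7 and 65.2 CPM against 29.0 and 30.9 CPM and was called higher (1.11, edgeR adjusted p = 0.0464).

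**Figure D3:**
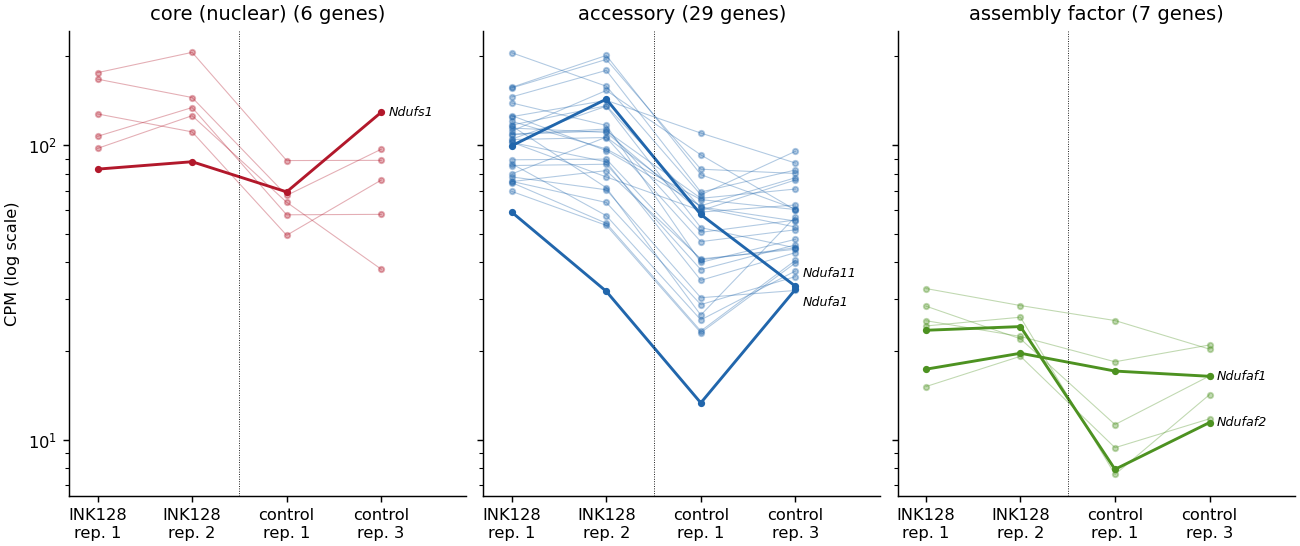
CPM on a log scale of nuclear core (6 of 7), accessory and assembly genes tested at a mean CPM above 10, in each library. A line joins the values of 1 gene, and 5 genes are drawn bold and named. Most genes lie lower in both controls, Ndufs1 and Ndufa1 overlap between the groups, and most assembly factors lie below most subunits.

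Levels of different genes were compared per kilobase of exon. In control replicates 1 and 3 the median was 37.2 and 36.8 CPM per kilobase for core genes, 31.8 and 36.2 for accessory genes and 6.20 and 6.58 for assembly factors. With INK128 the medians were 63.6 and 73.3, 86.0 and 70.1, and 8.46 and 10.7 CPM per kilobase. The medians of core and accessory subunits were of like size, and that of the assembly factors was the lowest in every library. Among control means, the accessory genes ran from Ndufb2 (5.55) to Ndufc2 (92.6) and the assembly factors from Ndufaf2 (3.25) to Ndufaf8 (13.1 CPM per kilobase). Exons of all isoforms were joined for these lengths, which lowers the level of genes with long isoforms. Per kilobase of the longest transcript, the medians of the control means were 52.3 for core genes, 47.1 for accessory genes and 8.81 for assembly factors, and the lowest core level was 37.3, against 12.3 for Ndufs1 per kilobase of joined exons.

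The 38 nuclear genes of complexes II to V had a median log2 fold change of 0.94, with 8 called higher and 0 lower by edgeR, and 75 mitochondrial ribosomal protein genes had a median of 0.77, with 10 higher and 0 lower. The whole set of tested genes had a median of −0.03, with 3.18% called higher and 3.19% lower by edgeR. In complexes II to V, Atp5e of the ATP synthase (228 and 252 CPM against 74.7 and 76.8 CPM, 1.66) and Uqcrh of complex III (247 and 258 CPM against 78.7 and 103 CPM, 1.47) rose (edgeR adjusted p = 0.0464 for each). Sdha (−0.28), Atp5b (−0.05), Atp5a1 (0.06) and Uqcrc2 (0.12) had overlapping groups, as Ndufs1 and Ndufa1 did in complex I. In the other 34 genes both treated libraries exceeded both controls, beside 34.5% of all genes tested. The named genes of complexes II to V were chosen after their values were seen. With exon length offsets the medians were 0.30 for complexes II to V, 0.46 for the ribosomal proteins and 0.39 for the Nduf genes, so the ribosomal proteins then came above the Nduf genes, which remained above complexes II to V. No test of Nduf genes against these lists was made.

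The Nduf genes are short, and fold changes ran with exon length over the whole table. Their median exon length was 1753.5 bases beside 4468 bases for all genes tested. From the shortest to the longest quintile of all genes, the median log2 fold change was 0.59, 0.24, −0.03, −0.27 and −0.54, and the share called higher went from 10.3% in the shortest to 0.256% in the longest. In the shortest quintile, 31 Nduf genes had a median of 1.06 beside 0.59 for all genes there, and 8 of them were called. Across genes, which are not independent replicates and share the same 4 libraries, Pearson's r of log2 fold change and log2 exon length was −0.43 (Spearman's rho −0.32) for 44 Nduf genes and −0.31 (−0.46) for 11700 genes.

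When a trend with exon length was removed from each library by offsets, edgeR called 0 genes in the whole table. An unadjusted p under 0.05 was reached by 1419 higher and 1698 lower genes. The median of the 44 Nduf genes was then 0.39, 41 were positive, and 12 higher and 0 lower ones had an unadjusted p under 0.05, beside 12.1% of all genes higher. Ndufb2 (1.38), Ndufb7 (1.30) and Ndufaf2 (1.02) had the largest fold changes with the offsets, while Ndufc2 (−0.12), Ndufa9 (−0.09) and Ndufaf1 (−0.52) turned negative and Ndufs1 turned positive (0.15). Whether the trend goes with the treatment or with these libraries cannot be told apart.

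**Figure D4:**
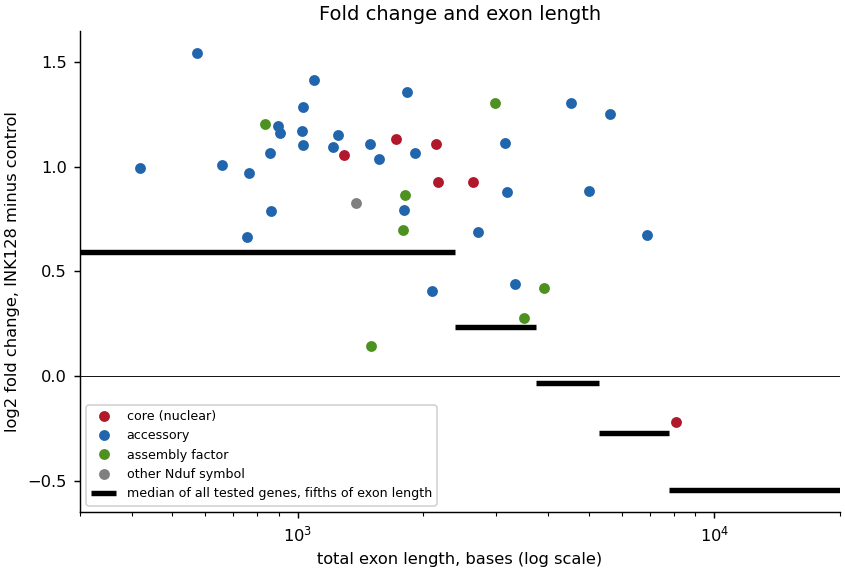
Log2 fold change (INK128 minus control) against total exon length on a log scale, with 1 point for each of 43 Nduf genes tested. Black bars are medians of all tested genes in quintiles of exon length and fall from 0.59 to −0.54. Most Nduf genes lie above the bar of their own quintile.

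Nduf genes also differed between the replicates of a group in a similar order in both groups. The difference in log2 CPM between INK128 replicates 2 and 1 was set beside that between control replicates 1 and 3. This order of subtraction was chosen after the values were seen, and reversing 1 of the differences turns the sign of r. Across the 44 genes, Pearson's r was 0.72 (Spearman's rho 0.69), beside −0.09 (0.02) across all 11758 genes. It was 0.88 in 29 accessory genes, 0.75 in 7 core genes, −0.10 in 7 assembly factors, 0.51 in 38 genes of complexes II to V and 0.50 in 75 mitochondrial ribosomal protein genes.

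At 1 end of this axis, Ndufa1, Ndufa3 and Ndufs6 were higher in INK128 replicate 1 and control replicate 3. Ndufa3 measured 116 and 71.7 CPM with INK128 and 26.5 and 57.1 CPM in controls, and Ndufs6 86.4 and 57.6 CPM against 25.5 and 37.4 CPM. At the other end, Ndufa11, Ndufa6 and Ndufs7 were higher in INK128 replicate 2 and control replicate 1, with Ndufa6 at 112 and 153 CPM against 92.7 and 60.3 CPM. The abundant mt-Nd genes had the same side as Ndufa11. Among Nduf genes, Pearson's r of log2 exon length with the difference between replicates was 0.42 in INK128 and 0.28 in controls. Over 11700 genes it had the opposite sign (−0.09 and −0.11). For GC content, r was 0.16 and 0.12 among Nduf genes and 0.07 and 0.07 over all. Ndufa3, Ndufs6 and Ndufa6 were chosen after their values were seen. None of these 6 genes passed in edgeR.

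**Figure D5:**
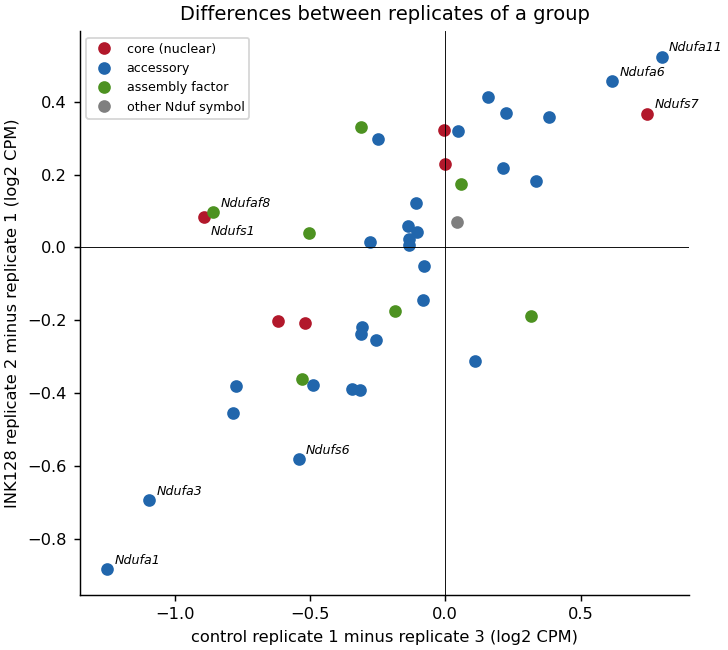
Difference in log2 CPM between the INK128 replicates (2 minus 1) against that between the controls (1 minus 3), with 1 point for each of 43 Nduf genes tested. Accessory genes lie along a rising line (r = 0.88, 29 genes) from Ndufa1 to Ndufa11, and assembly factors do not (r = −0.10, 7 genes).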

How the data were processed

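The 4 libraries (2 INK128, 2 control) were polyadenylated RNA-seq of rOvaries. The read counts per gene symbol were deposited by the authors as raw counts, without pooling. Trimming was by Trimmomatic, alignment to mm10 by HISAT2, and counting by featureCounts on an annotation named RefGene, and versions and strand settings are not given in the sources used here. Reads shared by overlapping or near-identical genes, such as pseudogenes, are uncertain.

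Groups were compared by quasi-likelihood F-tests (edgeR 4.0.16, R 4.3.3) with TMM factors on the 11758 genes with a mean CPM above 10 and Benjamini-Hochberg adjustment over all of them. A call needed more than a 1.5-fold change and an adjusted p under 0.05. Members under this filter were read from a fit of genes with mean CPM over 1. Standard errors came from the fold change and its F statistic. Log2 CPM used a pseudocount of 0.5. For positions and exon lengths, GENCODE M21 (mm10) matched 53447 of 54021 symbols and gave exon lengths for 99.5% of tested genes. Promoters came from RefSeq. The values of 1 core gene are not reported here, but it is included in counts and medians. Scripts were tested on simulated data.

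Members, classes and comparison lists were chosen with earlier results of these data known. Named genes were all core, Ndufaf, mt-Nd and other Nduf genes, the accessory genes called, the 5 largest and 5 smallest accessory fold changes, and of the other assembly factors those called and the extremes. Alternatives were DESeq2 1.42.0, limma voom (limma 3.58.1), 4 other scalings, 3 filters, offsets for exon length and GC content (lowess span 0.3), an adjusted p below 0.1 and each library left out. TMM factors computed before the filter were added after seeing the data.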

Additional observations from a re-analysis of the deposited data

How the results depend on the processing

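The number of Nduf genes called higher was 28 with DESeq2, 0 with voom, 18 with upper quartile factors, 17 with TMM factors computed before the filter, 0 with a mean CPM above 1 (35 at an unadjusted p below 0.05, as were 2664 of 17631 genes), 19 with CPM above 10 in all 4 libraries, 28 with at least 1 count, 0 with exon length or GC offsets (12 and 33 unadjusted, beside 1419 and 1915 of 11700 genes) and 27 at an adjusted p below 0.1. Leaving out single libraries gave 0 to 38 higher and 0 to 1 lower. Over all genes, those called higher and lower were 1595 and 1772 (DESeq2), 0 and 0 (voom, a mean CPM above 1, length or GC offsets), 803 and 717 (all 4 libraries), 1152 and 1953 (at least 1 count) and 1540 and 1591 (adjusted p below 0.1). Upper quartile factors gave 567 higher and library totals 580 lower, and leaving out libraries gave 0 to 2664 and 0 to 2723. Library totals moved the median of all genes to −0.15. The core median was 0.44 with length offsets and 0.69 to 1.06 with single libraries left out. The accessory median was 0.94 with library totals, 0.40 with length offsets and 0.95 to 1.16. The assembly median was 0.33 when CPM above 10 was required in all libraries, which left fewer genes, 0.29 with length offsets and 0.51 to 0.87. Direction turned with length offsets in Ndufs1 (0.15), Ndufc2 (−0.12), Ndufa9 (−0.088) and Ndufaf1 (−0.52), and without control replicate 3 in Ndufs1 (0.30, against −0.60 without control replicate 1). The cause of these changes was not tested. With a library left out, the lone sample was assumed to vary like the other group. No paired analysis was possible because the groups share a single replicate number. With 2 libraries a group, a difference missed by the test is not shown to be absent.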
